A study of Mus musculus with 12 samples.

Results

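The subject is the difference between the responses of 2 mouse colitis models to thymopentin, a synthetic pentapeptide derived from the thymic protein thymopoietin. For each gene the response was taken as the mean log2(FPKM + 1) of thymopentin libraries minus that of saline libraries, where FPKM is the fragment count scaled for transcript length and library size, and the TNBS response was then subtracted from the DSS response. All 12 of the 12 samples entered this contrast, and 13794 of 55335 genes, those averaging 1 FPKM or more across the libraries, were tested. The 4 groups of 3 libraries held colon RNA of WT mice. Mice of either model had received normal saline or thymopentin, and the groups are called TNBS saline, TNBS thymopentin and, for the other model, DSS saline and DSS thymopentin here. All 4 groups had colitis, raised by trinitrobenzene sulfonic acid (TNBS) or dextran sulfate sodium (DSS), and a group without colitis was not analysed here. The sources used here do not give strain, sex, age, dose, route or timing. No label says that the libraries of a group came from separate animals, so the p-values measure the spread between these samples. A positive difference means that the DSS response lay above the TNBS response.

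TNBS is a hapten: given with ethanol into the colon it binds to proteins of the host, and T cells react to them. DSS is a sulfated polymer taken with drinking water that injures the epithelium, after which microbes reach the tissue below. The colon wall is built of an epithelium renewed from dividing crypt cells, a stroma of fibroblasts, vessels and immune cells, and a muscle coat that carries the enteric nerves. Bulk RNA mixes all of these, and fewer cells of a type and less RNA per cell cannot be told apart.

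Summed FPKM lay between 384431 and 532510 per library, highest in the DSS saline group (484974 to 532510), and between 13160 and 13805 genes reached 1 FPKM. All 17 markers of absorptive colonocytes passed the filter, with summed levels of 5657 to 8786 in TNBS saline, 6447 to 6713 in TNBS thymopentin, 3342 to 4690.3 in DSS saline and 3973 to 5393 in DSS thymopentin. The neutrophil markers Mpo, Elane and Padi4 reached at most 0.0132, 0.115 and 0.0643 FPKM in any library and were not tested. TNBS saline 3 stood apart from its group: Hoxb13, which marks the distal end of the colon, was at 50.04, 86.9 and 0.722 FPKM in TNBS saline 1, 2 and 3. Counts with and without this library are given below. Calls rest on limma fitted across all genes, at a Benjamini-Hochberg adjusted p under 0.05.

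The responses of 710 genes differed between the models (5.15% of the genes tested). The DSS response lay above the TNBS response in 376 (2.73%) and below it in 334 (2.42%), and 335 of the 710 differed by at least 2-fold. In 594 of the 710 the mean responses had opposite signs, and this was so for 6052 of all 13794 genes. Within single models, 92 genes were called in TNBS (0.667%), 39 higher (0.283%) and 53 lower (0.384%) with thymopentin, and 2346 in DSS (17.0%), 1753 higher (12.7%) and 593 lower (4.30%). Of the 710 genes, 549 were called in DSS and not in TNBS, 42 in TNBS and not in DSS, 12 in both and 107 in neither. The larger response was that of DSS in 545 of them. Both models share no libraries, and across all tested genes their responses correlated at r = 0.104 (Pearson, given as a description, since genes are not replicates).

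The count of calls moved with single libraries. It was 213 without TNBS saline 1, 372 without TNBS saline 2, 356 without TNBS thymopentin 1, 176 without DSS saline 3, 216 without DSS thymopentin 2 and 350 without DSS thymopentin 3. Without TNBS saline 3, the library apart in Hoxb13, it was 764, of which 381 lay above and 383 below; the called genes then numbered 11 of 22 for type I interferon, 7 of 16 for the cell cycle, 9 of 19 for the matrix, 4 of 11 for nerves and 8 of 12 for smooth muscle, against 11, 8, 9, 6 and 1 with it. The fits that leave out 1 library are called the 12 smaller fits here, and 156 genes kept their call in all of them. Of the calls 53.0% had the DSS response above; this share was 41.1% after quantile normalization and 41.5% after median-ratio rescaling. The median difference over all tested genes was 0.11 on the log2 scale, with median responses of 0.03 in TNBS and 0.12 in DSS, and the medians of gene lists below are read beside these.

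**Figure D1:**
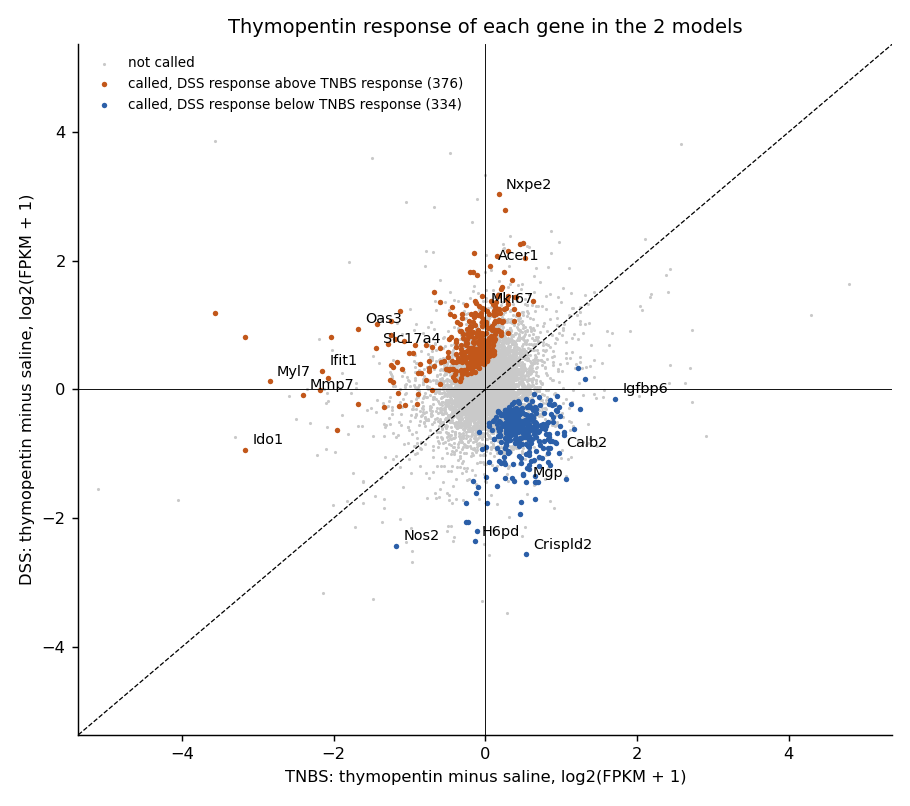
Thymopentin response of each of the 13794 tested genes in TNBS (x axis) and in DSS (y axis), both as differences of mean log2(FPKM + 1), with 376 called genes above the dashed line of equal response in orange and 334 below it in blue. The blue points lie mostly right of 0 and under 0, and the orange points split into genes that rose in DSS, such as Acer1, and genes that fell in TNBS, such as Ifit1.

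Most of the called genes differed between the models with saline and lay closer together with thymopentin. The gap between DSS and TNBS was smaller with thymopentin than with saline in 593 of the 710 genes, against 8638 of all 13794. Its median size over the called genes was 0.94 on the log2 scale with saline and 0.22 with thymopentin, and over all tested genes 0.37 and 0.27. Of the 334 genes with the lower DSS response, 332 were higher in DSS saline than in TNBS saline, and of the 376 with the higher DSS response 339 were lower there. The saline libraries enter both the gap and the contrast, so this is a description of the called genes and was not tested.

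**Figure D2:**
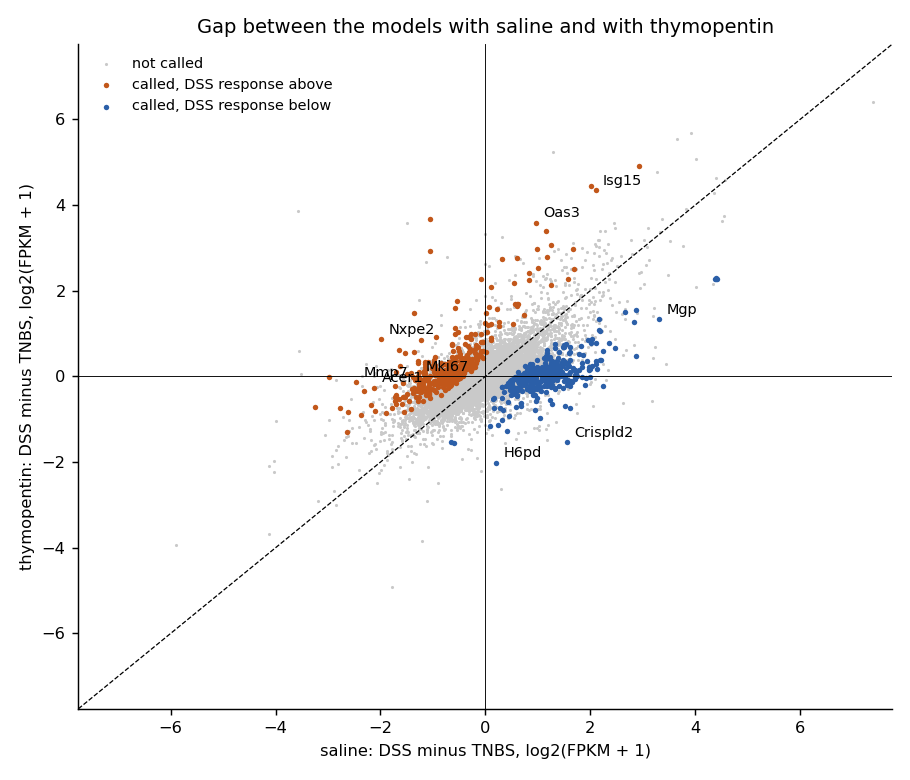
Gap between the models (DSS minus TNBS, log2(FPKM + 1)) with saline on the x axis and with thymopentin on the y axis, for the 13794 tested genes, with called genes in colour and the dashed line marking equal gaps. Called genes cluster around a thymopentin gap of 0, where Mki67 and Acer1 lie, while Oas3 and Isg15 sit above the dashed line with a wider gap under thymopentin.

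In interferon-stimulated genes the gap between the models widened with thymopentin. Type I interferons are antiviral cytokines whose receptor activates transcription factors that switch on genes of antiviral defence, and the list used here holds such targets. Oas3, an oligoadenylate synthetase that senses double-stranded RNA, was at 4.68, 5.75 and 6.56 FPKM in TNBS saline, 1.04, 1.07 and 1.07 in TNBS thymopentin, 16.7, 8.49 and 11.8 in DSS saline and 26.96, 24.8 and 20.1 in DSS thymopentin. Its groups did not overlap in either model, lower with thymopentin in TNBS and higher in DSS. The responses were -1.68 ± 0.20 in TNBS and 0.94 ± 0.20 in DSS (log2, SE), and the difference was 2.63 ± 0.28 (limma adjusted p = 0.00348). Ifit1, a binder of viral RNA, was at 15.7, 20.6 and 28.2 FPKM in TNBS saline, 4.03, 4.24 and 3.56 in TNBS thymopentin, 41.8, 16.9 and 25.2 in DSS saline and 35.2, 32.7 and 28.9 in DSS thymopentin. In TNBS its groups were far apart and in DSS they overlapped, with a difference of 2.44 ± 0.40 (adjusted p = 0.0117). Irf7, a transcription factor that amplifies interferon production, had 19.8, 17.9 and 19.9 FPKM in TNBS saline, compared with 8.10, 6.60 and 9.55 in TNBS thymopentin, and 46.48, 26.8 and 33.4 in DSS saline against 52.4, 46.6 and 42.7 in DSS thymopentin. It fell in TNBS, overlapped in DSS, and differed by 1.60 ± 0.26 (adjusted p = 0.0117).

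All 22 type I interferon response genes passed the filter. Of these 11 had a called difference, each with the DSS response above, where 2.73% of all tested genes did. The difference was above 0 in all 22, with a median of 1.20 beside 0.11 for all genes. In TNBS the means of all 22 were lower with thymopentin, and 6 of them were called lower (5 with the replicate block), where 0.384% of all genes were. In DSS 18 of the means were higher (15 under quantile normalization, 14 under median-ratio rescaling), with a median response of 0.22, and 2 were called higher, where 12.7% of all genes were. These 2, Oas3 and the RNA helicase Ddx58, had opposite responses without overlap in either model. The other called members were Oas1a and Oas2 (further synthetases), Isg15 (a ubiquitin-like modifier), Usp18 (which removes it), Rsad2 (viperin), Stat2 and Ifi44, with differences between 1.04 for Oas1a and 2.44 for Oas2. The median gap between DSS and TNBS in this list was 0.66 with saline and 1.75 with thymopentin. Summed FPKM of the list were 235 to 293 in TNBS saline, 111 to 126 in TNBS thymopentin, 395 to 794 in DSS saline and 596 to 723 in DSS thymopentin, so the DSS saline libraries lay on both sides of DSS thymopentin, as they did for Isg15 (239.5, 96.7 and 142 FPKM in DSS saline 1, 2 and 3).

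The number of called interferon genes was 7 without TNBS thymopentin 1, 5 without DSS saline 3, 6 without DSS thymopentin 2 and up to 15 in the other smaller fits. Oas3, Ifit1, Irf7, Ddx58 and Oas1a kept their calls in all 12. Isg15 lost its call without DSS saline 3 (adjusted p = 0.0511), Rsad2 without DSS thymopentin 2 or without DSS saline 3 (up to 0.0635), and Usp18 without any 1 of TNBS thymopentin 1 and the same 2 libraries (up to 0.0614). Stat2, Ifi44 and Oas2 lost theirs without any 1 of 7, 7 and 9 libraries (up to 0.0921). With the replicate block the adjusted p was 0.0602 for Stat2 and 0.056 for Oas2. Of 11 T cell and cytotoxic lymphocyte markers 0 had a called difference by limma (3 at an unadjusted p under 0.05), and 10 of the 11 differences were above 0. With the replicate block 2 were called, the granzymes Gzma (1.49, adjusted p = 0.031, 0.101 without the block) and Gzmb (responses of -1.04 in TNBS and -0.05 in DSS, adjusted p of the difference = 0.037, 0.101 without it). Gzma was also called lower with thymopentin in TNBS (-1.89 ± 0.34, adjusted p = 0.0385). The list's median responses were -0.40 in TNBS and -0.17 in DSS, and its summed FPKM were 8.13 to 25.1 in TNBS saline, 2.70 to 11.4 in TNBS thymopentin, 78.6 to 133 in DSS saline and 67.49 to 103 in DSS thymopentin. The part of lymphocyte content in the interferon results was not tested. Among 11 macrophage and dendritic cell markers 1 was called, with the DSS response below (2.42% of all genes). Mrc1, the mannose receptor, had a difference of -0.65 ± 0.15 (adjusted p = 0.036, 0.0794 with the replicate block, and lost without any 1 of 9 libraries).

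Promoters of the interferon genes are shown because the members moved together and their shared element can be read in the sequence. The RefSeq promoter table (GRCm38.p6, 250 bases before to 50 after the start of each gene, 5′ to 3′ on the strand of the gene) held 9 of the 11 called genes. The core of the interferon-stimulated response element was searched as GAAANNGAAA on both strands. It was found in a promoter of 7 of the 9 genes, Ddx58, Ifit1, Isg15, Oas1a, Oas3, Rsad2 and Stat2, and of 0 of 7 called cell cycle genes. It was held by 3.44% of all 32851 promoters, which belong to 27025 genes, so this share is by promoter and the counts are by gene. Capitals mark the matches, 1 in Oas3 (chr5:120777610-120777909, minus strand) and 2 in Ifit1 (chr19:34640639-34640938, plus strand), where they lie on the other strand. A match describes the letters and was not tested as a binding site.
Oas3: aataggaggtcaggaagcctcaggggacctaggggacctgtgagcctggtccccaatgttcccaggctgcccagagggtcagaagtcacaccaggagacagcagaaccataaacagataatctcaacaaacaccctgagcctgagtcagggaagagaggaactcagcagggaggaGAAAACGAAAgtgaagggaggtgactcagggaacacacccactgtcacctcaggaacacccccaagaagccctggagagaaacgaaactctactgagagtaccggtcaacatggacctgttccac
Ifit1: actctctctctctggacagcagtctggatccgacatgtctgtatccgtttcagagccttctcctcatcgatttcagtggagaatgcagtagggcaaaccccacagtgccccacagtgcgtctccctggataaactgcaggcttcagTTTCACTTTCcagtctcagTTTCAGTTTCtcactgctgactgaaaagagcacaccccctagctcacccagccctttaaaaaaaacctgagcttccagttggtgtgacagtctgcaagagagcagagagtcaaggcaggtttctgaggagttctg

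Outside that list, 4 further genes fell in TNBS and rose in DSS with both responses called. Ddx60, a helicase that promotes RNA sensing, was at 6.39, 8.66 and 7.58 FPKM in TNBS saline, 2.48, 3.10 and 1.97 in TNBS thymopentin, 10.7, 6.62 and 7.39 in DSS saline and 14.7, 16.7 and 10.8 in DSS thymopentin. Apol9a, an interferon-inducible apolipoprotein L, was at 2.55, 2.96 and 3.96 FPKM in TNBS saline, 0.642, 0.820 and 0.937 in TNBS thymopentin, 11, 5.23 and 6.27 in DSS saline and 14.3, 14.6 and 10.7 in DSS thymopentin. Ifi27l2b, of the interferon alpha-inducible protein 27 family, was at 118, 138 and 106 FPKM in TNBS saline, 63.1, 63.6 and 60.4 in TNBS thymopentin, 239, 132 and 173 in DSS saline and 279.7, 295 and 281 in DSS thymopentin. In TNBS none of these genes overlapped between saline and thymopentin, and in DSS 1 library crossed the groups for Apol9a, DSS saline 1. Their differences were 1.99 ± 0.28, 1.98 ± 0.32 and 1.62 ± 0.25 (adjusted p = 0.00781, 0.0117 and 0.0105), kept in all 12 smaller fits. The TNBS responses of Apol9a and Ifi27l2b had adjusted p of 0.0518 and 0.0944 with the replicate block. The fourth was Slc17a4, an organic anion transporter of gut epithelium, at 14.4, 13.8 and 15.4 FPKM in TNBS saline, 5.12, 3.495 and 5.78 in TNBS thymopentin, 3.54, 5.16 and 4.53 in DSS saline and 8.09, 7.24 and 6.72 in DSS thymopentin. With saline it was higher in TNBS than in DSS and with thymopentin the order was reversed; the difference was 2.08 ± 0.22 (adjusted p = 0.00348). With Oas3 these made 5 genes called lower in TNBS and higher in DSS. Lgals3bp, a secreted glycoprotein induced by interferon, differed by 2.30 ± 0.55 (adjusted p = 0.0423) and lost its call without any 1 of 10 libraries (up to 0.104).

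Targets of interferon gamma, the cytokine of Th1 cells, had negative median responses in both models, and 4 differed between them. Of 14 tested genes 4 had a called difference, all with the DSS response above (2.73% of all genes), and the medians were -1.21 in TNBS, -0.41 in DSS and 1.05 for the difference. In TNBS 8 of the 14 were called lower, where 0.384% of all genes were, and in DSS 2, where 4.30% were. After quantile normalization 2 differences of the list were called and after median-ratio rescaling 1. Ido1, which breaks down tryptophan, was at 30.7, 27.6 and 20.4 FPKM in TNBS saline, 2.20, 4.04 and 0.645 in TNBS thymopentin, 73.2, 48.3 and 57.1 in DSS saline and 33.54, 33.54 and 24.51 in DSS thymopentin. It was lower with thymopentin in both models without overlap, with responses of -3.17 ± 0.34 in TNBS and -0.93 ± 0.34 in DSS, of which only the first was called, and a difference of 2.24 ± 0.49 (adjusted p = 0.0301). The others were the immunity-related GTPases Igtp, Irgm1 and Irgm2, which act on vacuoles that hold microbes, with differences of 1.31, 1.10 and 1.07 (adjusted p = 0.0447, 0.0362 and 0.0434; 0.0715 for Igtp with the replicate block). Ido1, Igtp, Irgm1 and Irgm2 lost their calls without any 1 of 7, 10, 9 and 11 libraries (up to 0.11). Between 0 and 2 genes of the list were called without any 1 of 10 libraries, which are all 3 of TNBS saline, all 3 of DSS thymopentin, TNBS thymopentin 1 and 3, and DSS saline 2 and 3. Without TNBS thymopentin 2 there were 7. MHC class II genes, which present antigen, had 0 of 9 called differences by limma (0 at an unadjusted p under 0.05) and medians of -0.64 and -0.70.

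**Figure D3:**
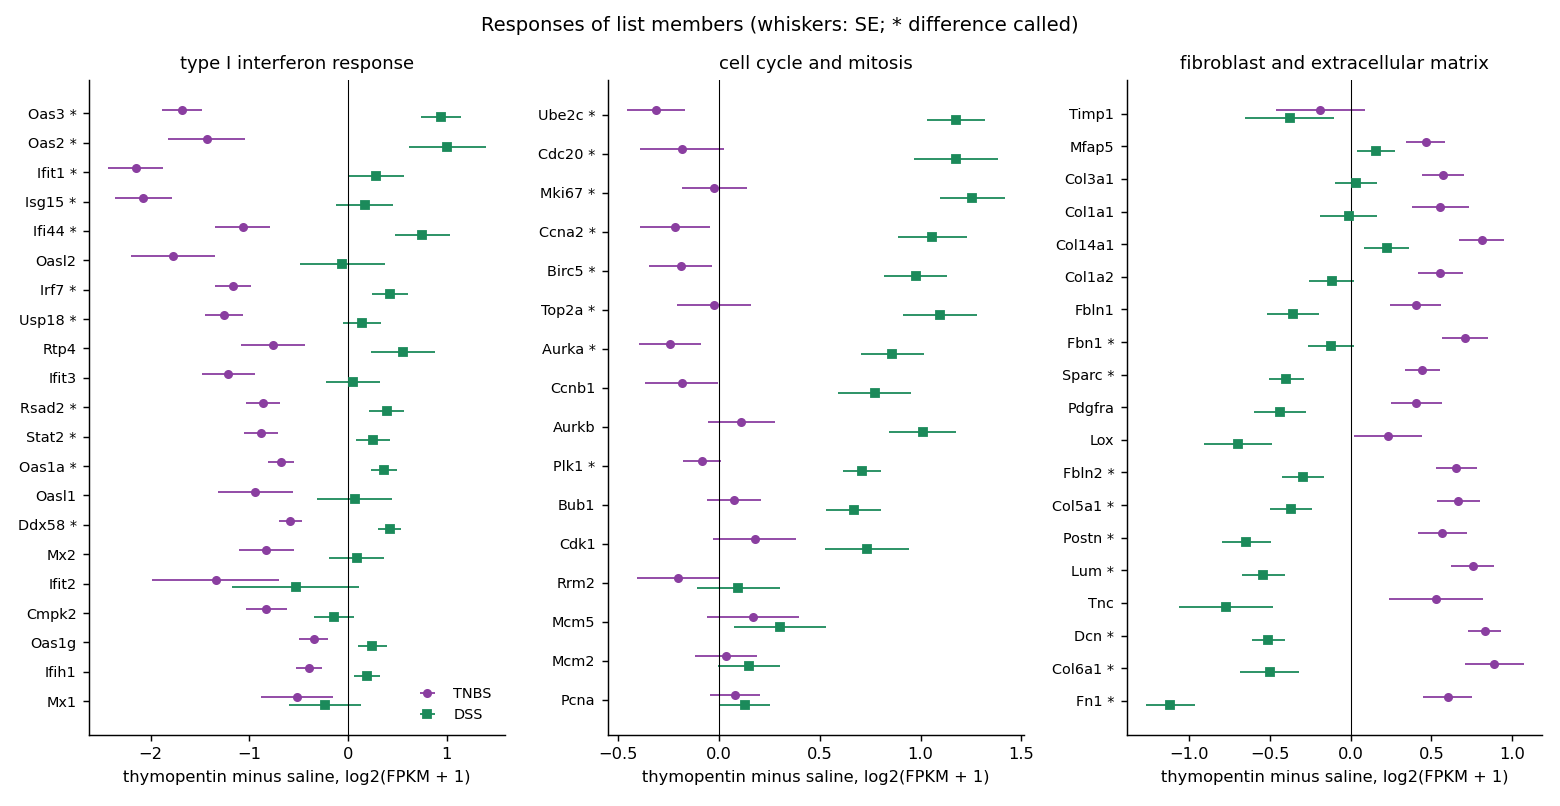
Responses (thymopentin minus saline, log2(FPKM + 1), whiskers SE) in TNBS and DSS of tested members of 3 gene lists (21 of the 22 interferon genes and all of the other lists), ordered by difference, with an asterisk at called differences. Interferon genes lie below 0 in TNBS, most cell cycle genes near 0 in TNBS and above 0 in DSS, and matrix genes on opposite sides of 0 in most members.

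Of 19 tested genes of fibroblasts and the extracellular matrix, 3 were called higher with thymopentin in TNBS and 6 were called lower in DSS, and 9 differences between the models were called, each with the DSS response below. Dcn (decorin), a proteoglycan that binds collagen fibrils, was at 10.3, 11.02 and 8.84 FPKM in TNBS saline, 18.8, 17.4 and 19.6 in TNBS thymopentin, 42.2, 49.54 and 48.2 in DSS saline and 34.9, 29.97 and 32.4 in DSS thymopentin. Neither model had overlapping groups. The TNBS response of 0.83 ± 0.10 and the DSS response of -0.51 ± 0.10 were both called (with the replicate block the adjusted p in TNBS was 0.0554), and the difference was -1.34 ± 0.14 (adjusted p = 0.00348). Lum (lumican), a related proteoglycan, was at 7.72, 7.69 and 6.88 FPKM in TNBS saline, 11.96, 14.4 and 13.46 in TNBS thymopentin, 19.7, 16.7 and 20.6 in DSS saline and 14.8, 10.1 and 13.6 in DSS thymopentin. Its groups were also apart in both models, and the difference was -1.30 ± 0.19 (adjusted p = 0.00925). Fn1 (fibronectin), which links cells to the matrix, was at 13.02, 13.8 and 17.8 FPKM in TNBS saline, 21.4, 25.98 and 21.53 in TNBS thymopentin, 32.1, 25.9 and 30.1 in DSS saline and 15.2, 10.7 and 13.3 in DSS thymopentin. DSS thymopentin lay below every other library except those of TNBS saline, and the difference was -1.72 ± 0.21 (adjusted p = 0.00603). Postn (periostin), a matrix protein of remodelling tissue, was at 12.96, 8.67 and 13.3 FPKM in TNBS saline, 17.98, 17.3 and 17.1 in TNBS thymopentin, 38.2, 31 and 35.95 in DSS saline and 25.3, 19.9 and 20.97 in DSS thymopentin, with no overlap in either model and a difference of -1.22 ± 0.21 (adjusted p = 0.0158).

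The 9 called differences of the 19 matrix genes stood against 2.42% of all genes with a call in that direction, and in all 19 the difference was below 0. Besides these 4 genes the calls were Col6a1 and Col5a1 (collagen chains), Sparc (a collagen-binding glycoprotein), Fbln2 (fibulin) and Fbn1 (fibrillin). The median response was 0.57 in TNBS and -0.38 in DSS, a difference of -0.85. In TNBS 18 of the 19 means were higher with thymopentin and 3 were called (1 with the block), where 0.283% of all genes were; in DSS 16 were lower and 6 were called, where 4.30% of all genes were. Opposite responses without overlap in either model were found in 9 of the 19, against 275 of all 13794 genes (1.99%). The reverse pattern, lower in TNBS and higher in DSS, had 165 genes (1.20%), none of them in this list. Summed FPKM of the list was 158 to 179 in TNBS saline, 230.5 to 277 in TNBS thymopentin, 330.5 to 388 in DSS saline and 236 to 288 in DSS thymopentin, so both thymopentin groups lay between the saline groups. Dcn, Lum, Fn1 and Postn kept their calls in all 12 smaller fits. The list had 5 calls without TNBS saline 1 and 4 without DSS saline 3. Without the latter Col5a1 (0.0519), Col6a1, Sparc and Fbln2 were lost (adjusted p up to 0.06 over their losses), and Fbn1 was lost without any 1 of 10 libraries (up to 0.111).

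The next 7 genes are outside the list and were named singly, all but Mgp after their values were seen. Mgp (matrix Gla protein), an inhibitor of calcification, was at 8.16, 7.63 and 9.96 FPKM in TNBS saline, 12.2, 13.1 and 13.1 in TNBS thymopentin, 108, 79.9 and 95.2 in DSS saline and 34.48, 28.1 and 40.1 in DSS thymopentin. Its gap between the models was 3.31 with saline and 1.34 with thymopentin, and the responses differed by -1.98 ± 0.21 (adjusted p = 0.00348). Axl, a receptor kinase for Gas6, was at 4.10, 3.98 and 4.74 FPKM in TNBS saline, 6.64, 7.54 and 7.74 in TNBS thymopentin, 13.1, 14.9 and 14.3 in DSS saline and 9.97, 8.37 and 10.03 in DSS thymopentin. Ptgis, the prostacyclin synthase, was at 0.574, 0.517 and 0.640 FPKM in TNBS saline, 2.02, 1.47 and 1.88 in TNBS thymopentin, 2.92, 4.05 and 3.75 in DSS saline and 2.36, 1.73 and 2.45 in DSS thymopentin. Both were apart in either model, with differences of -1.19 ± 0.14 and -1.34 ± 0.18. Cdon, a cell surface co-receptor for hedgehog, and Col16a1, a collagen chain, differed by -0.95 ± 0.12 and -1.06 ± 0.16. The TNBS responses of Axl (adjusted p = 0.0654), Ptgis (0.0815) and Col16a1 (0.0984) were no longer called with the replicate block. With Dcn and Lum these 4 made 6 genes called higher in TNBS and lower in DSS without the block, and all 6 kept the call of the difference in every smaller fit (adjusted p up to 0.0312). Igfbp6, which binds insulin-like growth factor 2, behaved differently: it was at 1.30, 1.52 and 1.46 FPKM in TNBS saline, 8.23, 7.20 and 5.64 in TNBS thymopentin, 6.51, 8.54 and 8.21 in DSS saline and 8.57, 5.06 and 7.47 in DSS thymopentin. Here TNBS saline alone stood low, DSS showed overlapping groups, and the difference was -1.85 ± 0.25 (adjusted p = 0.00708). Mfap4, of elastic fibres, was at 1.84, 3.24 and 2.65 FPKM in TNBS saline, 6.65, 6.22 and 5.16 in TNBS thymopentin, 5.56, 5.81 and 6.07 in DSS saline and 4.52, 3.46 and 4.52 in DSS thymopentin, apart in both models, with a difference of -1.39 ± 0.21 (adjusted p = 0.0101).

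The pathway of BMP, a growth factor of differentiation in the crypt, had 15 tested genes, of which 4 had differences above 0 and 11 below. At an unadjusted p under 0.05 there were 7, of which 3 were above and 4 below, and 3 were called, all below (2.42% of all genes). In DSS 3 of the genes were called higher with thymopentin, where 12.7% of all genes were, and 1 lower, where 4.30% were. Grem1 (gremlin), a secreted BMP antagonist, was at 11.9, 16.2 and 11.3 FPKM in TNBS saline, 16.1, 20.46 and 27.7 in TNBS thymopentin, 31.97, 25.9 and 25.3 in DSS saline and 16.2, 6.92 and 9.33 in DSS thymopentin. Its DSS groups were apart and its TNBS groups overlapped, the responses were 0.65 ± 0.27 and -1.35 ± 0.27, and the difference passed (adjusted p = 0.0215). Chrdl1 (chordin-like), also an antagonist, differed by -1.74 ± 0.38 (adjusted p = 0.0305). The median difference of the list was -0.33, and without any 1 of 7 libraries (replicates 1 and 2 of TNBS saline, 1 and 3 of TNBS thymopentin, 2 and 3 of DSS saline and 3 of DSS thymopentin) 0 or 1 of its genes was called. Grem1 lost its call without DSS saline 3, DSS thymopentin 3 or TNBS saline 1 (up to 0.0592) and Chrdl1 without any 1 of 7 libraries (up to 0.0801).

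Of 11 tested neuron and glia markers 6 had a called difference, and of 10 enteroendocrine markers 3, all with the DSS response below (2.42% of all genes). Calb2 (calretinin), a calcium-binding protein of enteric neurons outside the marker list, was at 3.11, 2.53 and 3.42 FPKM in TNBS saline, 7.65, 4.66 and 8.91 in TNBS thymopentin, 14.6, 17.6 and 17.2 in DSS saline and 9.24, 6.41 and 7.995 in DSS thymopentin. Its groups did not overlap in either model. The responses of 0.97 ± 0.20 and -0.98 ± 0.20 differed by -1.96 ± 0.28 (adjusted p = 0.00782). Prph (peripherin), a neuronal intermediate filament, was at 3.63, 3.73 and 3.72 FPKM in TNBS saline, 7.09, 4.71 and 8.02 in TNBS thymopentin, 12.4, 15.8 and 17.6 in DSS saline and 7.98, 5.30 and 8.97 in DSS thymopentin, and differed by -1.63 ± 0.29 (adjusted p = 0.0156). Htr3a, a subunit of the serotonin-gated ion channel that is not in the list either, was at 1.43, 2.05 and 0.796 FPKM in TNBS saline, 3.45, 2.46 and 3.84 in TNBS thymopentin, 6.40, 9.05 and 8.75 in DSS saline and 4.18, 2.09 and 3.34 in DSS thymopentin, and differed by -1.96 ± 0.34 (adjusted p = 0.0151). All of them kept their calls in the 12 smaller fits. Vip, the vasoactive intestinal peptide, had a larger difference, -2.46 ± 0.52, with TNBS saline 3 lowest at 7.47, 9.19 and 2.38 FPKM in TNBS saline 1, 2 and 3 (adjusted p = 0.0286; lost without any 1 of 6 libraries, up to 0.0731).

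The differences of all 11 neuron and glia markers lay below 0 with a median of -1.05 (responses 0.41 in TNBS and -0.65 in DSS). In DSS 9 were called lower, where 4.30% of all genes were, and in TNBS 0 were called. The called members besides Prph and Vip included Uchl1 (a neuronal ubiquitin hydrolase), Tubb3 (a neuronal tubulin) and Elavl4 (an RNA-binding protein of neurons), between -1.76 and -1.05. Leaving out TNBS saline 1, DSS saline 3, TNBS thymopentin 1 or DSS thymopentin 2 left 1 call, leaving out TNBS saline 2 or DSS thymopentin 3 left 2, and no other library left more than 5. With the replicate block Uchl1 and Elavl4 did not pass (adjusted p = 0.0716 and 0.0819). The called enteroendocrine markers were Gcg, the precursor of glucagon-like peptides, Syp (synaptophysin), of secretory vesicles, and Scg5, a chaperone of hormone processing. With the replicate block 2 markers were called, Syp and the gut hormone Pyy (-1.19 ± 0.53, adjusted p = 0.0286, 0.221 without the block). Gcg was at 26.4, 23.01 and 20.7 FPKM in TNBS saline, 29.7, 48.1 and 42.9 in TNBS thymopentin, 37.6, 40.1 and 36.4 in DSS saline and 28.1, 21.9 and 26.7 in DSS thymopentin, apart in both models, with a difference of -1.30 ± 0.24 (adjusted p = 0.0171, but 0.0506 with the replicate block). Syp differed by -1.04 ± 0.17 (adjusted p = 0.0138), and Scg5 by -1.41 ± 0.28 (adjusted p = 0.0229; 0.0571 with the block, and lost without DSS saline 3, TNBS saline 1 or TNBS thymopentin 1). Sst (somatostatin), a hormone of D cells and some neurons that was chosen after its values were seen, was at 10.6, 10.8 and 9.15 FPKM in TNBS saline, 11.51, 13.6 and 15.7 in TNBS thymopentin, 21.04, 24.9 and 31.1 in DSS saline and 7.32, 7.52 and 12.3 in DSS thymopentin, a difference of -1.80 ± 0.28 (adjusted p = 0.0105).

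Smooth muscle markers had the lowest median difference of the lists with at least 5 tested genes, -1.32. A single member was called, where 2.42% of all genes were called with the DSS response below. All 12 markers had higher means with thymopentin in TNBS (11 under either rescaling) and lower means in DSS (median responses 0.45 and -0.91). Lmod1 (leiomodin), an actin nucleator of smooth muscle, was called at -1.74 ± 0.37 (adjusted p = 0.0294). Myh11, the smooth muscle myosin, was at 93.2, 45.8 and 179 FPKM in TNBS saline, 122, 110.0 and 197 in TNBS thymopentin, 187, 206 and 219.8 in DSS saline and 132, 93.3 and 131 in DSS thymopentin, with TNBS saline 2 lowest and TNBS saline 3 close to DSS saline, and did not pass (-1.38 ± 0.57, adjusted p = 0.182). Without TNBS saline 3 the list had 8 called genes and a median of -1.68, where 383 of all 13794 genes were called below. With the replicate block it had 4, where 322 of all genes were called below. Without replicate 1 or 2 of TNBS saline, 1 or 3 of TNBS thymopentin, or 2 or 3 of either DSS group it had 0, with a median of -0.90 without TNBS saline 2. Lmod1 lost its call without any 1 of 8 libraries (up to 0.0765). Of 9 tested endothelial markers 0 were called by limma (7 at an unadjusted p under 0.05), and their median difference was -0.64; with the replicate block 1 was called, Eng (endoglin), at -0.69 (adjusted p = 0.0417, 0.0861 without the block). Mustn1, a small nuclear protein of muscle, was at 14.46, 12.01 and 19.3 FPKM in TNBS saline, 19.46, 19.8 and 25.8 in TNBS thymopentin, 94.8, 78.1 and 91.8 in DSS saline and 37.3, 27.1 and 40.9 in DSS thymopentin, apart in both models, with a difference of -1.82 ± 0.27 (adjusted p = 0.01) kept in all 12 smaller fits. Pcp4l1, a small peptide, differed by -1.82 ± 0.37 (adjusted p = 0.0268) and lost its call without any 1 of 6 libraries (up to 0.0728).

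With thymopentin the mean summed levels of smooth muscle, nerve and endothelial markers were higher in TNBS and lower in DSS. Those of fat tissue were lower in both models, but in TNBS this rested on TNBS saline 3. Cfd of that list was at 0.450, 0 and 41.86 FPKM in TNBS saline 1, 2 and 3. Those of small intestine averaged 21.36 in TNBS saline and 21.15 in TNBS thymopentin, and were lower with thymopentin in DSS. For smooth muscle, with all 12 markers above the filter, the summed levels were 952 to 2894 in TNBS saline, 1965 to 2779 in TNBS thymopentin, 3777 to 4408 in DSS saline and 1697 to 2541 in DSS thymopentin. For neurons and glia, with 11 of 13 markers tested and Chat and Sox10 under the filter, they were 21.8 to 27.7 in TNBS saline, 37.1 to 51.3 in TNBS thymopentin, 81.3 to 106 in DSS saline and 30.1 to 50.4 in DSS thymopentin. For endothelium, with 9 of 11 tested, they were 16.9 to 22.8 in TNBS saline, 22.9 to 31.4 in TNBS thymopentin, 46.2 to 69.6 in DSS saline and 41.3 to 46.3 in DSS thymopentin. For fat tissue, with 4 of 7 tested, they were 2.43 to 86.8 in TNBS saline, 5.19 to 12.6 in TNBS thymopentin, 23.1 to 145 in DSS saline and 4.30 to 21.6 in DSS thymopentin, with a median difference of -1.14 and 0 called differences by limma (0 at an unadjusted p under 0.05). For small intestine, with 3 of 8 tested, they were 15.4 to 25.9 in TNBS saline, 12.4 to 30.7 in TNBS thymopentin, 81.9 to 133 in DSS saline and 31.3 to 46 in DSS thymopentin. Fabp6, a bile acid-binding protein of the ileum, made up most of the DSS saline sum. It averaged 88.6 FPKM in DSS saline and 16.28 in DSS thymopentin, against list means of 106 and 37.37. Of the 3 tested markers 2 had lower means with thymopentin in DSS and 1 a higher mean. Fabp6 was called lower with thymopentin in DSS (-2.36 ± 0.46, adjusted p = 0.00976), and its difference did not pass (-1.93 ± 0.65, adjusted p = 0.114). In each of these lists DSS saline had the highest mean, as it had for the matrix genes. Absorptive colonocyte markers, summed above, had 0 of 17 called differences by limma (6 at an unadjusted p under 0.05) and a median difference of 0.13. The part of the muscle, nerve, vessel, fat or small intestine content of a sample in these results was not tested.

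**Figure D4:**
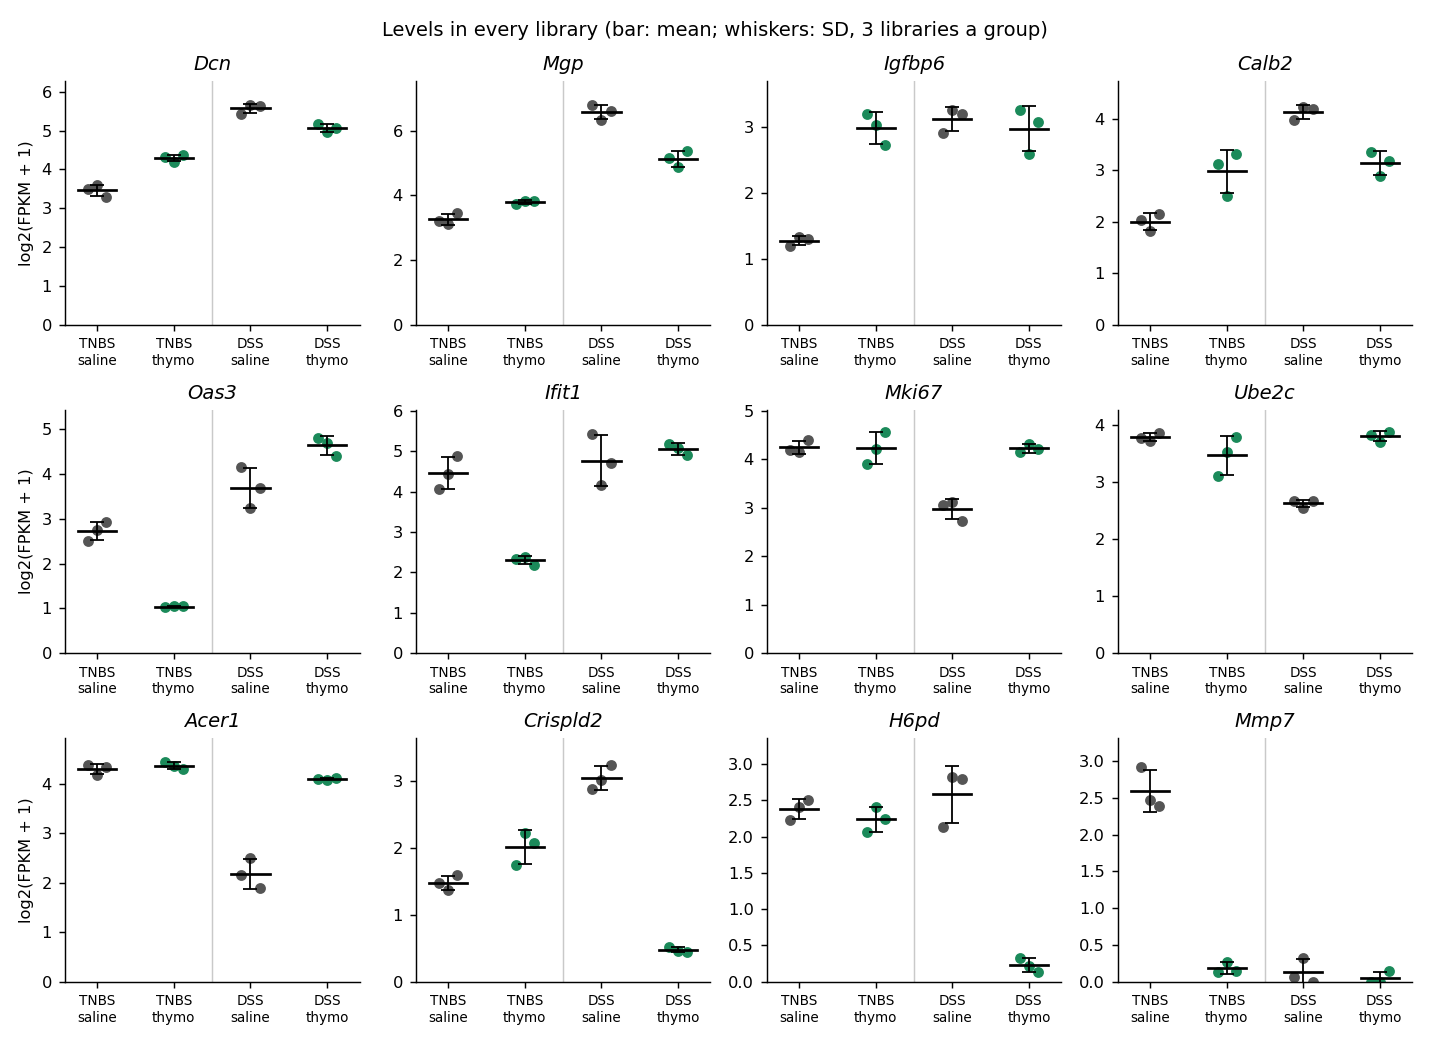
Level, as log2(FPKM + 1), of 12 genes in each of the 12 libraries by group, with the group mean as a bar and the SD of 3 libraries as whiskers. Dcn and Calb2 run from the lowest in TNBS saline to the highest in DSS saline with both thymopentin groups between, Oas3 falls in TNBS and rises in DSS, Acer1, Crispld2 and H6pd differ mainly between the DSS groups, and Mmp7 is high in TNBS saline.

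Of 16 tested genes of cell division, 12 were called higher with thymopentin in DSS (12.7% of all genes) and 0 were called in TNBS, and 8 differences between the models were called, each with the DSS response above (2.73% of all genes). Ube2c, the ubiquitin-conjugating enzyme that drives exit from mitosis, was at 12.7, 12.2 and 13.48 FPKM in TNBS saline, 7.59, 10.50 and 12.7 in TNBS thymopentin, 5.31, 4.84 and 5.34 in DSS saline and 13.1, 12.1 and 13.7 in DSS thymopentin. The DSS saline libraries lay below all 9 others, and the difference was 1.49 ± 0.20 (adjusted p = 0.00716). Mki67, the proliferation marker Ki-67, was at 17.4, 16.7 and 20.1 FPKM in TNBS saline, 14.01, 17.50 and 22.6 in TNBS thymopentin, 7.33, 7.71 and 5.64 in DSS saline and 16.6, 18.9 and 17.7 in DSS thymopentin. In TNBS its groups overlapped, in DSS they were apart, and the difference was 1.28 ± 0.23 (adjusted p = 0.0164). Plk1, a kinase of mitotic entry, differed by 0.80 ± 0.13 (adjusted p = 0.0138), from 15.7, 15.2 and 15.2 FPKM in DSS saline to 24.4, 25.2 and 27.7 with thymopentin. All 16 differences were above 0 with a median of 0.93. Under either rescaling 15 of the 16 were above 0. The responses had medians of -0.06 in TNBS and 0.82 in DSS.

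The remaining called members were Ccna2 (cyclin A), Birc5 (survivin), Aurka (a spindle kinase), Cdc20 (an activator of the anaphase-promoting complex) and Top2a (topoisomerase), between 1.10 for Aurka and 1.36 for Cdc20. Of the genes of DNA replication, Pcna, Mcm2 and Mcm5 had differences of 0.05, 0.11 and 0.13 and did not pass (adjusted p = 0.904, 0.814 and 0.858). Whether mitosis and replication genes differed from each other was not tested. Summed FPKM of the list was 163 to 189 in TNBS saline, 134 to 196 in TNBS thymopentin, 65.4 to 89.7 in DSS saline and 135 to 142 in DSS thymopentin, with DSS saline below every other group. The number of called genes was 3 without TNBS saline 1 or DSS saline 3 and 5 without DSS thymopentin 2 or 3, and reached 11 in the other smaller fits. Ube2c, Mki67 and Plk1 kept their calls in all 12. Ccna2 and Birc5 were lost without DSS saline 3 or TNBS saline 1 (up to 0.0548), Aurka also without DSS thymopentin 2 or 3, Cdc20 without any 1 of 6 libraries and Top2a without any 1 of 10 (up to 0.09).

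The promoter of Ube2c is shown because mitotic genes share elements that can be found in it. The cell cycle homology region, searched as TTTGAA on both strands, was present in 6 of the 7 called cell cycle genes in the promoter table, compared with 17.9% of all promoters. The CCAAT box, searched as CCAAT on both strands, was present in 6 of the 7 as well, against 37.4% of all promoters. In Ube2c (chr2:164769679-164769978, GRCm38.p6, plus strand) capitals mark 1 cell cycle homology region, TTCAAA on this strand, and 6 CCAAT boxes, some read as ATTGG, of which 1 pair overlaps.
Ube2c: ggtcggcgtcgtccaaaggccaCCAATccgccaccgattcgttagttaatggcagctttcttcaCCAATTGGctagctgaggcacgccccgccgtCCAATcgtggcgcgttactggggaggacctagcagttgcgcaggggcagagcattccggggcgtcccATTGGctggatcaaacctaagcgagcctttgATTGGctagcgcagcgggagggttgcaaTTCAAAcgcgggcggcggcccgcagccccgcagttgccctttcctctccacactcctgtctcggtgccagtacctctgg

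Several single genes were called in DSS and not in TNBS. Crispld2, a secreted lipopolysaccharide-binding protein induced by glucocorticoids, had the smallest p of all genes. It was at 1.77, 1.59 and 2.01 FPKM in TNBS saline, 2.34, 3.68 and 3.18 in TNBS thymopentin, 6.31, 7.10 and 8.38 in DSS saline and 0.435, 0.376 and 0.366 in DSS thymopentin. With thymopentin it was higher in TNBS and much lower in DSS, without overlap in either, with responses of 0.53 ± 0.13 (adjusted p = 0.116) and -2.56 ± 0.13 (adjusted p = 2.43e-05) and a difference of -3.10 ± 0.19 (adjusted p = 0.00012). H6pd, the hexose-6-phosphate dehydrogenase that feeds NADPH to the glucocorticoid-activating enzyme of the endoplasmic reticulum, was at 3.68, 4.32 and 4.67 FPKM in TNBS saline, 3.18, 4.30 and 3.74 in TNBS thymopentin, 3.39, 6.06 and 5.93 in DSS saline and 0.254, 0.159 and 0.102 in DSS thymopentin. DSS thymopentin stood alone near 0 while the other 3 groups overlapped, and the difference was -2.21 ± 0.25 (adjusted p = 0.00401). These were the 2 called genes among 13 glucocorticoid response genes, whose median difference was -0.35. Of all genes tested, 2.42% were called with the DSS response below. In the authors' deposited table for DSS, Crispld2 and H6pd had log2 fold changes of -4.30 (FDR 7.91e-118) and -5.03 (FDR 3.18e-60), and neither was listed for TNBS.

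Rises in DSS alone brought DSS thymopentin close to both TNBS groups, though still below them, for Acer1, an alkaline ceramidase. It was at 19.8, 17.1 and 19.3 FPKM in TNBS saline, 20.7, 19.6 and 18.7 in TNBS thymopentin, 3.45, 4.64 and 2.73 in DSS saline and 16.3, 16.02 and 16.3 in DSS thymopentin. DSS saline stood low and the other 3 groups lay together, with a difference of 1.85 ± 0.18 (adjusted p = 0.00295). Ncoa1, a coactivator of nuclear receptors, was at 4.21, 4.80 and 4.41 FPKM in TNBS saline, 4.95, 5.09 and 4.62 in TNBS thymopentin, 1.28, 1.504 and 1.48 in DSS saline and 5.51, 4.59 and 5.15 in DSS thymopentin. DSS saline again stood low beside the other 3 groups, with a difference of 1.22 ± 0.12 (adjusted p = 0.00295). Gm44223, an unnamed gene model, and Nxpe2, a protein of colon epithelium with no settled function, differed by 2.52 ± 0.25 and 2.85 ± 0.46. Nxpe2 was at 26.2, 19.50 and 28.7 FPKM in TNBS saline, 42.9, 33.6 and 14.6 in TNBS thymopentin, 5.42, 6.48 and 4.60 in DSS saline and 61.05, 42.1 and 53.6 in DSS thymopentin, with TNBS thymopentin spread over both sides of TNBS saline. Ugcg, the glucosylceramide synthase, and Cyp2s1, an epithelial cytochrome P450, differed by 0.75 ± 0.12 and 1.39 ± 0.24 (adjusted p = 0.0112 and 0.0154). Acer1 and Ugcg were the 2 calls among 18 sphingolipid enzymes, and Ncoa1 the 1 among 15 nuclear receptor coregulators, with list medians of 0.13 and 0.23, close to the 0.11 of all genes. A call with the DSS response above was made for 2.73% of all genes. Crispld2, H6pd, Acer1, Ncoa1, Gm44223, Nxpe2, Ugcg and Cyp2s1 kept their calls in all 12 smaller fits.

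The list counts in this paragraph stand beside 2.42% of all genes called with the DSS response below and 2.73% above. Hk2 (hexokinase), the entry step of glycolysis, was the 1 call among 12 hypoxia and glycolysis genes. It was at 42.7, 48.54 and 53.55 FPKM in TNBS saline, 62.50, 51.51 and 58.6 in TNBS thymopentin, 58.8, 51.6 and 61.6 in DSS saline and 31.2, 23.9 and 22.4 in DSS thymopentin, lower with thymopentin in DSS alone, with a difference of -1.38 ± 0.19 (adjusted p = 0.00781). Ces2g, a carboxylesterase, was at 4.05, 5.43 and 3.12 FPKM in TNBS saline, 8.70, 7.80 and 8.13 in TNBS thymopentin, 15.1, 19.9 and 24.4 in DSS saline and 8.15, 8.81 and 7.27 in DSS thymopentin. It was higher with thymopentin in TNBS and lower in DSS, without overlap in either model, with a difference of -2.02 ± 0.26 (adjusted p = 0.00603). Hoxa9, a homeobox gene of posterior tissue, was at 18.3, 14.9 and 21.1 FPKM in TNBS saline, 9.18, 10.1 and 13 in TNBS thymopentin, 6.54, 7.64 and 6.498 in DSS saline and 9.998, 12.2 and 12.2 in DSS thymopentin. It was lower in TNBS and higher in DSS, without overlap in either model, with a difference of 1.36 ± 0.21 (adjusted p = 0.0105), and with Hoxa10 (0.72 ± 0.16, adjusted p = 0.0323, lost without any 1 of 8 libraries and under either rescaling) made 2 calls among 16 tested Hox genes, and 1 under either rescaling. Acta1, the skeletal muscle actin, was at 5.02, 3.27 and 3.42 FPKM in TNBS saline, 2.40, 1.995 and 1.76 in TNBS thymopentin, 2.57, 1.98 and 2.19 in DSS saline and 11.2, 7.74 and 6.29 in DSS thymopentin, highest in DSS thymopentin, and differed by 2.18 ± 0.27 (adjusted p = 0.00603). Of 8 skeletal muscle markers 6 were under the filter. Ckm, the other one tested, went the opposite way and did not pass (-0.89 ± 0.47, limma adjusted p = 0.297). Its DSS response was -0.82 ± 0.33 (adjusted p = 0.11), without overlap in DSS. Tmem184b, a membrane protein, differed by 2.27 ± 0.55 (adjusted p = 0.0442), lost without any 1 of 11 libraries (up to 0.105). TNBS saline 3 and TNBS thymopentin 3 both stood low for it, at 8.96, 9.22 and 2.65 and 7.36, 7.27 and 2.88 FPKM in replicates 1, 2 and 3, and its adjusted p with the replicate block was 0.0132. Clock, a core gene of the circadian clock, was the 1 call among 16 clock genes (0.89 ± 0.19, adjusted p = 0.0306; 0.0622 with the block, and lost without any 1 of 8 libraries). With the block the 1 call was Dbp, a clock output factor (1.60 ± 0.47, adjusted p = 0.0314, 0.0797 without it).

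The following genes stood high in 1 TNBS group. Mmp7 (matrilysin), a matrix-degrading protease of epithelium, was at 6.56, 4.56 and 4.23 FPKM in TNBS saline, 0.0982, 0.209 and 0.102 in TNBS thymopentin, 0.0488, 0.254 and 0 in DSS saline and 0, 0 and 0.102 in DSS thymopentin. It averaged 1 FPKM only through TNBS saline, so its levels are given as a description with no test; it was near 0 in both DSS groups. Among the other 9 matrix metalloproteinases tested 0 differences were called by limma (3 at an unadjusted p under 0.05). Myl7, an atrial myosin light chain, was at 18.3, 15.01 and 12.4 FPKM in TNBS saline, 2.10, 2.19 and 0.130 in TNBS thymopentin, 0.731, 1.39 and 1.004 in DSS saline and 1.13, 0.999 and 1.53 in DSS thymopentin. TNBS saline again stood apart from 3 low groups, with a difference of 2.97 ± 0.48 (adjusted p = 0.0117). Cyp2c69, a cytochrome P450, was at 0.953, 1.05 and 1.15 FPKM in TNBS saline, 4.07, 3.11 and 4.17 in TNBS thymopentin, 0.272, 0.523 and 0.146 in DSS saline and 0.824, 0.462 and 0.678 in DSS thymopentin. It averaged 1 FPKM only through TNBS thymopentin and is described with no test; both DSS groups were low.

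Inflammatory and neutrophil genes had negative median responses in both models, and 1 of those tested, Nos2, differed. Nos2, the inducible nitric oxide synthase, was at 13.1, 16.9 and 14.1 FPKM in TNBS saline, 5.39, 8.70 and 4.29 in TNBS thymopentin, 14.8, 15.3 and 16.7 in DSS saline and 2.11, 2.15 and 1.97 in DSS thymopentin. It was lower with thymopentin in both models without overlap, by more in DSS (-2.43 ± 0.19 against -1.18 ± 0.19), and the difference was -1.25 ± 0.26 (adjusted p = 0.0281), lost without DSS thymopentin 2 or 3, DSS saline 3 or TNBS saline 1 (up to 0.0728). It was the 1 call among 9 tested cytokines and mediators and among 15 epithelial antimicrobial genes (2.42% of all genes were called in that direction). Without TNBS saline 2 the antimicrobial list had 4 calls and without DSS saline 1 it had 2. S100a8, a calprotectin subunit, was at 2.32, 3.42 and 0.984 FPKM in TNBS saline, 0, 0.148 and 0.236 in TNBS thymopentin, 2.08, 1.59 and 4.22 in DSS saline and 0, 0.316 and 0 in DSS thymopentin. Its saline and thymopentin groups were apart in both models. The differences of S100a8 and of its partner S100a9 were -0.21 (95% interval -1.17 to 0.75) and -0.70 (-1.86 to 0.46), and neither passed (adjusted p = 0.831 and 0.482). Lcn2, a siderophore-binding protein, differed by -1.36 (95% interval, unadjusted, -2.23 to -0.49, adjusted p = 0.0745). Cd177, also in the neutrophil list, differed the other way, by 0.92 (95% interval, unadjusted, 0.05 to 1.80, limma adjusted p = 0.2). Of 18 neutrophil genes 5 were tested, and 0 of them had a called difference by limma (2 at an unadjusted p under 0.05).

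Immunoglobulin segments, Ccl21b and Hspb1 have similar copies elsewhere in the genome, and whether these share reads was not tested. The largest difference among the calls was that of the immunoglobulin segment Igkv9-120, 4.74 ± 0.97 (adjusted p = 0.0257), at 35.1, 121 and 9.24 FPKM in TNBS saline, 1.79, 3.90 and 1.02 in TNBS thymopentin, 17.4, 15.1 and 15.8 in DSS saline and 31.7, 45.1 and 37.52 in DSS thymopentin. Its TNBS saline libraries spanned more than 10-fold. Ighv1-81 and Igkv14-111 differed by 3.99 ± 0.76 and 2.35 ± 0.42 (0.0508 with the block for the latter). Igkv9-120 and Ighv1-81 lost their calls without any 1 of 6 and 3 libraries. Ccl21b, a chemokine of lymphatic vessels with several copies, differed by -2.10 ± 0.48 (adjusted p = 0.0376, 0.0779 with the block, lost without any 1 of 9 libraries). Hspb1, a small heat shock protein with a processed copy, differed by -2.36 ± 0.59 (adjusted p = 0.0462, lost without any 1 of 10). The calls of Epo, Gem and Mir143 also rested on single libraries. Epo (erythropoietin) was at 4.60, 4.87 and 5.04 FPKM in TNBS saline, 0, 1.85 and 0 in TNBS thymopentin, 0, 2.66 and 2.22 in DSS saline and 3.22, 3.12 and 2.62 in DSS thymopentin, with TNBS thymopentin 1 and 3 and DSS saline 1 listed at 0, and its difference of 2.85 ± 0.69 (adjusted p = 0.0442) was lost with the block (0.0586) and without any 1 of 9 libraries. Gem, a small GTPase, and the gene model Mir143 differed by -2.09 ± 0.52 and -2.39 ± 0.54 and were lost without any 1 of 10 and 9 libraries.

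**Figure D5:**
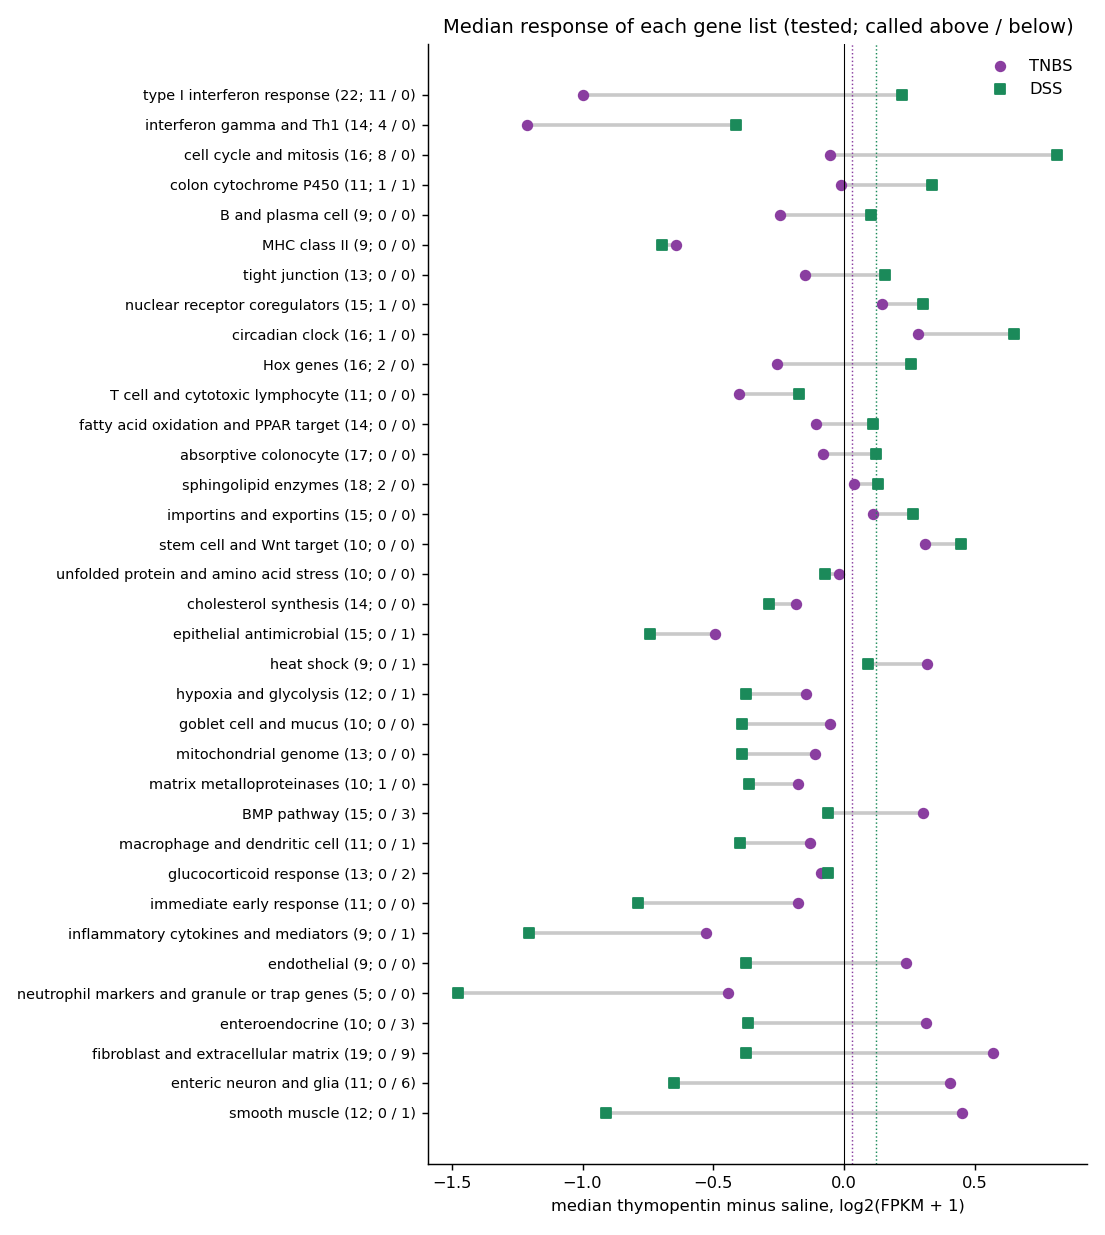
Median thymopentin response (log2(FPKM + 1)) in TNBS (circles) and DSS (squares) of the gene lists with at least 5 tested genes, with the number tested and the calls of the difference above and below in parentheses; dotted lines give the medians of all genes, 0.03 and 0.12. Interferon lists lie left in TNBS, cell cycle genes lie right in DSS, and matrix, nerve and muscle lists lie on opposite sides of 0.

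In the authors' deposited tables, which list selected genes of each model with their own fold changes, 257 genes stood in both. These fold changes come from the same 12 libraries, and no listed gene of the 257 had a log2 fold change under 1 in size. These were 21.9% of the 1173 TNBS genes and 11.0% of the 2326 DSS genes. Of the 257, 115 had fold changes of the same sign and 142 of opposite sign, and of the latter 119 were higher in TNBS and lower in DSS and 23 the reverse. Only 90 of the 257 passed the filter used here and were tested, 58 of the same sign and 32 of opposite sign. At an FDR under 0.05 in both of the authors' deposited tables, 80 genes were left, 40 of the same sign and 40 of opposite sign. For Calb2 the authors' deposited tables gave log2 fold changes of 1.12 (FDR 0.00175) in TNBS and -1.20 (FDR 1.75e-10) in DSS. For Htr3a they gave 1.19 (FDR 0.0395) and -1.50 (FDR 3.56e-07).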

How the data were processed

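Colon RNA of 12 samples in 4 groups of 3 was analysed. Expression was deposited by the authors as FPKM for 55335 genes; 21126 of these were 0 in every library. Tools that the submitters' processing notes list, without role or order, are Cuffnorm, DESeq 1.22.1, FastQC and STAR 2.5, with mm9 as the build. For selected genes of each model, log2 fold changes with p-values and FDR were deposited, per the file headers, together with per-library log2 columns whose low values (up to 30 reads) were whole multiples of 1 step per library, all within 0.01 reads. Reads could thus be recovered for selected genes only, no count test was run, and total depth is unknown. FPKM hold no counts, so genes were tested on log2(FPKM + 1), which understates changes of low genes.

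limma 3.58.1 in R 4.3.3 fitted 4 group means with an empirical Bayes trend and 8 residual degrees of freedom to 13794 genes averaging 1 FPKM or more. Tests are two-sided, with Benjamini-Hochberg adjustment over all tested genes. The test was run on simulated data first. Alternatives were other pseudocounts, filters, scalings and variance models, a replicate block and leaving out each library. Deviations of same-numbered saline and thymopentin libraries correlated at 0.124, 0.268 and 0.476 in TNBS, all above 0.1. In DSS they correlated at -0.136, 0.0427 and -0.14, and in either model the labels give only a number. Libraries of unlike number in TNBS correlated at -0.442 to 0.287, so these values cannot settle whether the numbers pair libraries. The replicate block, which pairs same-numbered libraries in both models, was therefore fitted as an alternative. The fit described has no block; values with it are given where the call of a named difference or of an opposite response changes. Genes named are the 15 largest called differences in each direction, the 8 largest in each direction with opposite responses without overlap, and up to 4 members per list by p with every called member, of which the text gives a selection; a few members are not reported here. Apol9a, Axl, Cdon, Col16a1, Hoxb13, Ifi27l2b, Igfbp6, Mcm2, Mcm5, Mfap4, Myh11, Pcna, Ptgis and Sst were named after their values were seen. The members and the 42 gene lists were chosen with earlier results of these data known. Promoters came from the RefSeq table of GRCm38.p6; no coordinate of the deposited build was used. Tables and plots were made in Python 3.11.15 (pandas 2.3.3, matplotlib 3.10.9).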

Additional observations from a re-analysis of the deposited data

Results flagged for a closer look

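The thymopentin response differed between TNBS and DSS in 710 genes by the tested interaction, which is the subject of the report. Among these, 11 genes had called responses of opposite sign in the 2 models. Those with the DSS response above were Oas3 (difference 2.63 on the log2 scale), Slc17a4 (2.08), Ddx60 (1.99), Apol9a (1.98) and Ifi27l2b (1.62). Those with the DSS response below were Dcn (-1.34), Ptgis (-1.34), Lum (-1.30), Axl (-1.19), Col16a1 (-1.06) and Cdon (-0.95). All 11 kept the call of the difference without any 1 library and with the replicate block. The call of the TNBS response was lost with the block in 6 of them, Dcn (adjusted p = 0.0554), Ptgis (0.0815), Axl (0.0654), Col16a1 (0.0984), Apol9a (0.0518) and Ifi27l2b (0.0944). With the block 8 genes had called responses of opposite sign, of which 5 were among the 11.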

How the results depend on the processing

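Array weights were 6.39 for TNBS saline 1 and 0.752 and 0.495 for TNBS saline 2 and 3. With them the TNBS saline mean rested mostly on 1 library. The 710 differences became 355 with no filter on low values, 385 when the mean had to reach 5 FPKM and 2327 with array weights. Those with the DSS response above (376) became 187 with no filter, 1439 with array weights and 225 under quantile normalization, and those below (334) became 168 with no filter, 110 at a mean of 5 FPKM and 888 with array weights. In TNBS the 92 calls became 44 with no filter and 1055 with array weights, and in DSS the 2346 became 1447 at a mean of 5 FPKM and 3854 with array weights. The 11 opposite calls became 18 and 4 at pseudocounts of 0.1 and 5, 3 with no filter and 195 with array weights. The 440 genes with opposite responses without overlap became 738 with no filter and 201 at a mean of 5 FPKM. The authors' 142 opposite and 115 same-sign genes became 40 and 40 at an FDR under 0.05. With the replicate block 589 differences were called, 428 of them among the 710. Leaving out 1 library gave 176 to 764 differences, 108 to 381 above and 68 to 383 below, 41 to 116 calls in TNBS, 923 to 2505 in DSS, 3 to 22 opposite calls and 470 to 868 genes without overlap; fewer libraries make overlap rarer. The causes of the other shifts were not tested. The difference of S100a8, not called, ran from -0.47 (without TNBS saline 2) to 0.11 over these fits and turned to 0.11 without TNBS saline 3 and 0.09 without DSS saline 3. Rescaling moved the median difference of all genes by -0.08 (quantile) or -0.06 (median ratios). The small differences of Pcna, Mcm2 and Mcm5, none called, changed sign: Pcna was -0.094 after quantile normalization and -0.017 with median ratios, and leaving out 1 library gave -0.031 to 0.191 for Pcna, -0.037 to 0.282 for Mcm2 and -0.13 to 0.428 for Mcm5, the lowest each without DSS saline 3 and the highest without DSS saline 2.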
